A study of Mus musculus with 10 samples.

Results

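The genes described here encode the alpha chains of the collagens. They were taken by a rule on the name: every row of the count table whose symbol is Col, a number, the letter a and a number. The rule took 44 of the 35542 genes in the table, among them all 11 fibrillar chains, 6 basement membrane chains of type IV collagen, 9 FACIT chains (fibril-associated collagens with interrupted triple helices) and 18 chains of other classes. RNA was sequenced from the frontonasal prominence (FNP), the embryonic tissue that gives rise to the forehead and nose, of FVB/NJ mouse embryos at E10.5. The 6 control libraries came from Smchd1 WT/WT embryos (WT; replicates 1 to 3 labelled male, 4 to 6 labelled female). The 4 mutant libraries came from embryos homozygous for MommeD1, a null allele of the chromatin protein gene Smchd1 (MD1; replicates 2 and 3 labelled male, 1 and 4 labelled female). The study's methods state that the allele is lethal to homozygous female embryos, and the labels name no treatment for either group.

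Collagens are trimers of alpha chains wound into a triple helix, and they form the scaffold of connective tissue. Fibrillar chains build the banded fibrils of mesenchyme, cartilage and bone, type IV chains build the network of basement membranes, and FACIT chains sit on the surface of fibrils. In the face, the neural crest mesenchyme lays down collagen beneath the surface ectoderm well before the nasal cartilage and the facial bones appear. Each chain is hydroxylated, glycosylated and folded in the endoplasmic reticulum, then trimmed and crosslinked outside the cell, by enzymes that are described after the chains.

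The libraries held between 4195119 counts (MD1 replicate 3) and 24125084 counts (WT replicate 3). The level of a gene is its count per 1000000 counts of a library scaled by the trimmed mean of M-values (CPM), and levels of different genes are compared only on the deposited log2 RPKM scale, which corrects for transcript length. Smchd1 itself lay between 229 and 265 CPM in the WT libraries and at 55.3, 99.9, 67.2 and 91.9 CPM in MD1 replicates 1 to 4, a log2 fold change of -1.65 ± 0.15 (SE) with an adjusted p of 0.000746 in edgeR's quasi-likelihood test. The library labelled MD1 female replicate 1 went against its sex label, with 295 reads per 1000000 counts over 4 Y-linked genes against 252 to 320 in the libraries labelled male and 0 in the other libraries labelled female. Its Xist level of 207 CPM lay between the 0.601 to 2.11 CPM of the libraries labelled male and the 2594 to 6228 CPM of the others labelled female, and whether it holds tissue of more than 1 embryo was not tested. MD1 replicate 4 stood apart in other markers. All 18 genes of a hypoxia list, all 7 erythroid markers and all 4 mesothelial markers were above every WT library there. Of 10 facial mesenchyme markers, 8 were below every WT library and 1 above. Other lists were divided, with 5 of 8 endothelial, 4 of 7 forebrain and 4 of 7 surface ectoderm markers above every WT library. Of all 15982 genes, 35.8% were above and 35.2% below every WT library in MD1 replicate 4. All 4 mesothelial markers were above every WT library in MD1 replicate 1 as well, against 13.7% of all genes. Their summed level there was 4.66 CPM, against at most 1.99 CPM in WT and 13.2 CPM in MD1 replicate 4. The summed level of the facial mesenchyme markers was 1492 to 2095 CPM in WT and 1051 to 1751 CPM in MD1. None of those 10 was at 0 in any library. The summed level of the 8 cartilage markers was 218 to 285 CPM in WT and 281 to 517 CPM in MD1. Acan, Comp and Matn1 added little to it, with WT means of 0.272, 0.105 and 0.009 CPM. In each WT library 1 to 3 of the 8 were at 0. In MD1 replicate 3, Acan, Chad, Cnmd, Comp and Matn1 were at 0. The mean log2 CPM of the cartilage list against WT was lowest there, at -0.68, although its sum was above every WT library. In whole tissue, fewer cells of a type and less RNA per cell cannot be told apart.

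Collagen RNA took a similar share of the library in both genotypes. The 44 chains took 0.524% ± 0.0355 of all counts in WT (SD, n = 6) and 0.524% ± 0.0441 in MD1 (SD, n = 4). The range was 0.480% to 0.560% in WT and 0.470% to 0.573% in MD1, so that the genotypes overlapped throughout. Of the 44 chains, 36 passed the low-count filter. The other 8 were Col4a3, Col4a4, Col19a1, Col6a4, Col6a5, Col6a6, Col10a1 and Col28a1, none of which exceeded 1.21 CPM in any library. Col6a5 had 0 reads in all 10 libraries, which allows up to 3 counts in each. Col10a1, the collagen of hypertrophic cartilage, reached at most 0.304 CPM.

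In WT, the highest chain per length was Col4a1, the first chain of the basement membrane network, at a log2 RPKM of 6.48 ± 0.10 (SD, n = 6). Col2a1, the chain of cartilage collagen, was at a log2 RPKM of 6.21 ± 0.12, and Col3a1, the chain of type III collagen of loose connective tissue, at 6.17 ± 0.18. Col2a1 and Col3a1 did not differ beyond their spread. Col4a2, the partner of Col4a1, was at a log2 RPKM of 5.85 ± 0.11. Col1a2, the second chain of type I collagen, was at 5.74 ± 0.22 on the same scale, and Col18a1, a basement membrane proteoglycan from which endostatin is released, at 5.72 ± 0.15. These chains again lay within 1 SD of each other. A step followed to Col26a1 at a log2 RPKM of 4.53 ± 0.25 and to Col5a2, which sets fibril diameter together with type I collagen, at 4.50 ± 0.06. Col1a1, the other chain of type I collagen, came only in place 9 at a log2 RPKM of 3.70 ± 0.24. The chains Col23a1, Col5a1, Col9a1, Col15a1, Col8a2, Col11a1 and Col4a5 followed between 3.57 and 2.79. Dividing CPM by the length of the merged exons gave the same 10 highest chains. Both scales gave equal differences between paired chains, such as 2.045 for Col1a2 less Col1a1, so this is no separate check of the order. At the low end of the chains past the filter, Col5a3 was at a log2 RPKM of -3.17 ± 0.42. The plot of level per length shows the order.

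**Figure D1:**
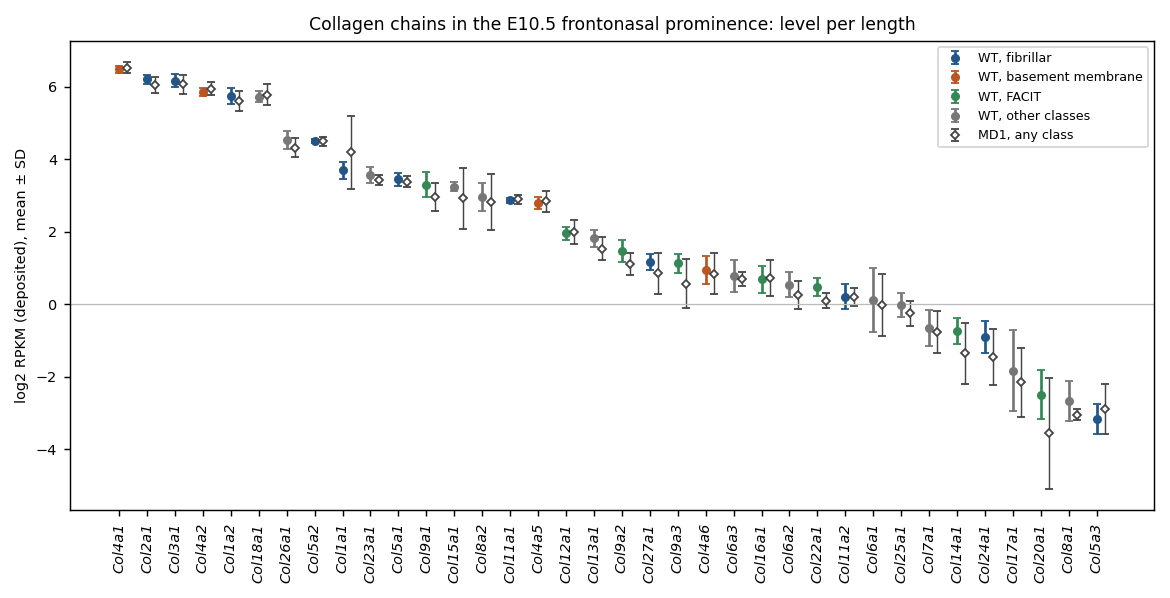
Collagen chains past the low-count filter, ordered by their level in WT. The vertical axis is the deposited log2 RPKM, filled circles are WT means (n = 6) coloured by class, open diamonds are MD1 means (n = 4) and bars are SD. Col4a1 leads at 6.48 and Col5a3 is lowest at -3.17, and Col1a1 has a wide MD1 bar.

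The fibrillar chains supplied most of the collagen reads, at 51.0% to 58.9% of them per library. The basement membrane chains supplied 20.7% to 29.2%, the FACIT chains 2.81% to 3.55% and the chains of other classes 16.5% to 18.2%. Both extremes of the basement membrane share came from single libraries, the lowest from WT replicate 4 (20.7%) and the highest from MD1 replicate 4 (29.2%). In the remaining WT libraries that share was between 23.1% and 26.2%, and in MD1 replicates 1, 2 and 3 it was 23.7%, 23.6% and 26.1%.

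**Figure D2:**
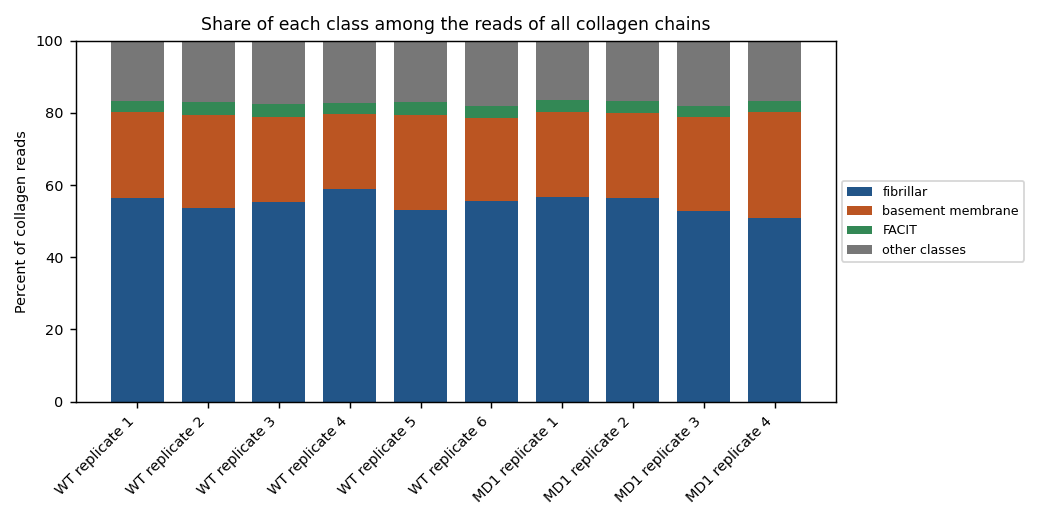
Share of each collagen class among the reads of all 44 chains, in percent, by library. The fibrillar share is between 51.0% and 58.9%, and the basement membrane share is highest in MD1 replicate 4, at 29.2%.

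The variation between WT libraries differed widely among chains and was larger for rare transcripts. The coefficient of variation over the 6 WT libraries had a median of 16.8% over the 36 chains. It was 11.3% for the 16 chains with a WT mean of 50 CPM or more and 26.2% for the 20 chains under that level. The steadiest chains were Col5a2 at 3.9%, Col11a1, a nucleator of cartilage fibrils, at 4.3% and Col4a1 at 5.8%. The least steady was Col17a1, a hemidesmosomal collagen of surface epithelium, at 62.7% around a mean of only 2.32 CPM.

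No collagen chain passed the threshold for a difference between MD1 and WT. Of the 34 autosomal chains tested, 0 had an adjusted p of at most 0.05 in edgeR's quasi-likelihood test (also 0 in DESeq2, voom and limma on log2 RPKM), where 0.0777% of all 15452 autosomal genes did (12 genes), and the lowest adjusted p of a chain was 0.498. At an unadjusted p under 0.05 there were 2 chains, Col1a1 and Col22a1, or 5.9% of the 34, against 9.79% of all genes. The chains were higher in MD1 in 14 cases and lower in 20. That put 41.2% of them on the higher side, against 50.5% of all genes, and the count was 11 of 34 under scaling by total count and 8 of 34 in limma on the deposited log2 RPKM, where scale and model both differ. Their median log2 fold change was -0.07, against 0.00 over all genes. No chain had its 4 MD1 libraries all above or all below the 6 WT libraries, which 0.99% and 1.06% of all genes did.

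**Figure D3:**
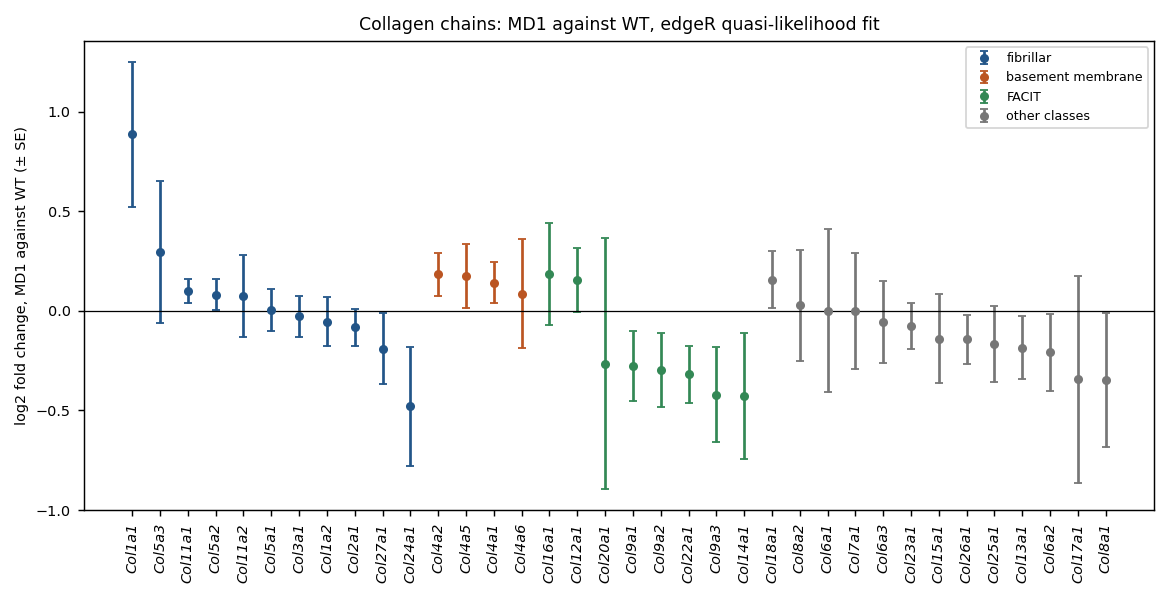
Log2 fold change of each collagen chain in MD1 against WT with its SE, from edgeR, by class. The values run from -0.48 (Col24a1) to 0.89 (Col1a1), the SE of Col1a1 is 0.36, and the FACIT chains lie mostly below 0. The X-linked Col4a5 and Col4a6 come from the fit over all chromosomes.

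By class, the 11 fibrillar chains divided into 6 higher and 5 lower in MD1, with a median log2 fold change of 0.00. Both autosomal type IV chains were higher, with a median of 0.16 (0.05 without MD1 replicate 4 and 0.26 without MD1 replicate 2), and 6 of 8 FACIT chains were lower, with a median of -0.29. Among the 13 tested chains of other classes 9 were lower, with a median of -0.14, including all 4 transmembrane chains. All 4 class medians, and that over all chains, had the same sign in every setting tried except the fibrillar one. The fibrillar median changed sign in several settings (-0.14 to 0.06). With each library left out in turn, the median over all chains ran from -0.149 to -0.004. The type IV median rests on 2 chains, of which Col4a1 was at -0.004 without MD1 replicates 1 and 4.

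Type I collagen, the main fibril of skin and bone, is a trimer of Col1a1 and Col1a2 chains, and its chains differed in their pattern over the libraries. Col1a1 (ENSMUSG00000001506, chr11:94936224-94953042 on GRCm38, plus strand) was at 74.2 CPM in the lowest, 93.3 in the median and 116 in the highest WT library. In MD1 replicates 1 to 4 it was at 189, 79.7, 71.5 and 359 CPM. The libraries labelled MD1 female (replicates 1 and 4) were thus above all WT libraries, while of those labelled MD1 male replicate 2 lay inside the WT range and replicate 3 just below it. The log2 fold change of Col1a1 was 0.89 ± 0.36 (SE), the highest of all chains, with an adjusted p of 0.498 in edgeR. Without MD1 replicate 4 it was 0.29. With replicates 1 and 4 both left out it was -0.33.

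Col1a2 (ENSMUSG00000029661, chr6:4504814-4541544, plus strand) ran from 618 through a median of 722 to 969 CPM in WT. It was at 860, 689, 656 and 660 CPM in MD1 replicates 1 to 4. All 4 of these values lay inside the WT range, and the log2 fold change was -0.05 ± 0.12 with an adjusted p of 0.877 in edgeR. The difference between the chains within a library, Col1a2 less Col1a1 in log2 RPKM, was 2.05 ± 0.18 in WT (SD, n = 6; 1.88 to 2.36), a 4.13-fold excess of Col1a2 per length. In MD1 replicates 2 and 3 that difference was 2.19 and 2.28, inside the WT range. It was 1.26 in MD1 replicate 1 and -0.04 in MD1 replicate 4, where both chains stood at the same level per length. Whether marker genes that move in those libraries have a part in this was not tested.

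A stretch upstream of Col1a2 is shown because it is the type I chain with an entry among the RefSeq promoter windows (GRCm38.p6), and because its GC boxes are a feature common among the chains. It is chr6:4505370-4505492 on the plus strand, inside an intron of a longer annotated transcript and before the RefSeq start. Capitals mark GGGCGG, searched on both strands, found 2 times at 205 and 188 bases before that start.
Col1a2: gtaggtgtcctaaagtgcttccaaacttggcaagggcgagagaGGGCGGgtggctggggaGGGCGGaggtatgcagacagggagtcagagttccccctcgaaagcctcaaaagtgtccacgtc
Of the 44 chains, 35 had a window, which runs from 250 bases before to 50 bases after the start. GGGCGG occurred in the windows of 22 of these 35 chains (62.9%) and of 38.2% of all 27025 genes with a window. It occurred in 65.1% of the biosynthesis and turnover genes described below, so it was not particular to the chains. The median GC content was 59.8% for the windows of chains, 61.7% for those of biosynthesis and turnover genes and 52.7% for all windows.

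Among the other major fibrillar chains, the genotypes overlapped for Col2a1 and Col3a1 and less so for Col11a1. Col2a1 was at 680, 767 and 839 CPM in the lowest, median and highest WT library and at 700, 611, 839 and 717 CPM in MD1, with a log2 fold change of -0.08 ± 0.09. Col3a1 was at 687, 756 and 944 CPM in WT and at 894, 783, 707 and 700 CPM in MD1, with a log2 fold change of -0.03 ± 0.11. All MD1 values of Col3a1 lay inside the WT range, and of Col2a1 only that of MD1 replicate 2 lay below it. Col11a1, the partner of Col2a1 in cartilage fibrils, was at 98.3, 104 and 108 CPM in WT and at 112, 110, 107 and 113 CPM in MD1. Thus 3 of the 4 MD1 libraries were above every WT library and only replicate 3 was not. Without it the groups did not overlap, with MD1 above WT as for 2.58% of all genes. The log2 fold change of Col11a1 was 0.10 ± 0.06 with an adjusted p of 0.567 in edgeR. Col2a1 exceeded Col11a1 by 3.34 ± 0.11 in log2 RPKM in WT, and by 3.11, 2.93, 3.43 and 3.12 in MD1.

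Col5a2 exceeded its partner Col5a1 by 1.05 ± 0.14 in log2 RPKM in WT, with 1.07 to 1.19 in MD1. After Col1a1, Col5a3 and Col24a1 had the widest errors of the fibrillar chains. Col5a3 was at 0.60, 0.83 and 1.17 CPM in WT and at 1.00, 0.60, 1.93 and 1.14 CPM in MD1, a log2 fold change of 0.30 ± 0.36. Col24a1, a fibrillar chain found in developing bone, was at 2.80, 4.93 and 6.23 CPM in WT and at 4.18, 3.19, 4.83 and 1.75 CPM in MD1. Its log2 fold change of -0.48 ± 0.30 was the lowest of all chains. Only MD1 replicate 4 was below the WT range. Col11a2, another chain of cartilage type XI collagen, overlapped between groups at 6.02 to 12.1 CPM in WT and 7.08 to 12.2 CPM in MD1.

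**Figure D4:**
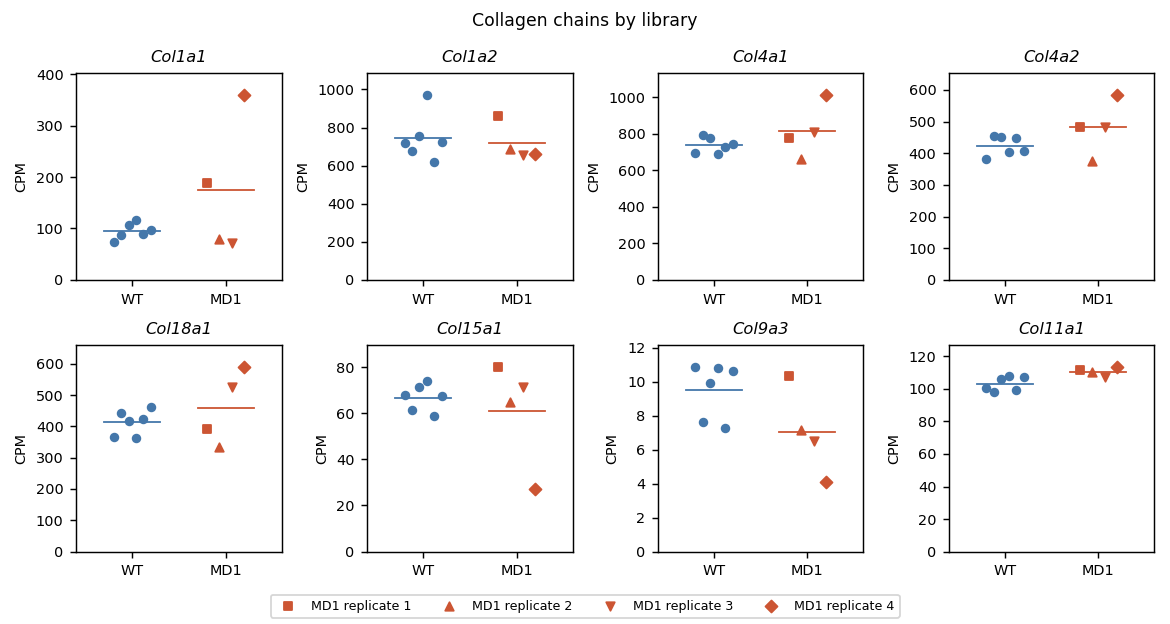
Level of 8 collagen chains in each library, in CPM on linear axes from 0. Blue circles are the 6 WT libraries, orange symbols are MD1 replicates 1 to 4 and lines are means. Col1a1 reaches 359 CPM in MD1 replicate 4 against at most 116 in WT, Col15a1 is at 27.1 CPM there, and Col11a1 stays between 98.3 and 113 CPM throughout.

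The type IV chains of the basement membrane come as head-to-head gene pairs. Col4a1 (chr8:11198423-11312826, minus strand) and Col4a2 (chr8:11312805-11449287, plus strand) overlap by 22 bases at their starts. Col4a3 and Col4a4 lie 71 bases apart on chromosome 1, and Col4a6 and Col4a5 lie 1308 bases apart on the X chromosome. The library kit does not mark strand, so reads within the 22 shared bases of Col4a1 and Col4a2 cannot be assigned to either.

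Col4a1 was at 689, 737 and 795 CPM in the lowest, median and highest WT library and at 778, 660, 812 and 1011 CPM in MD1. Replicates 3 and 4 of MD1 were above the WT range, replicate 1 inside it and replicate 2 below it. The log2 fold change was 0.14 ± 0.10 with an adjusted p of 0.611 in edgeR. Col4a2 was at 383, 426 and 454 CPM in WT and at 484, 376, 484 and 583 CPM in MD1, with a log2 fold change of 0.18 ± 0.11 and an adjusted p of 0.547 in edgeR. For Col4a2, MD1 replicates 1, 3 and 4 were above the WT range and replicate 2 below it, and without replicate 2 all MD1 libraries were above WT, as those of 2.68% of all genes were. Within a library the ratio of the chains was steady, and Col4a1 exceeded Col4a2 by 0.63 ± 0.06 in log2 RPKM in WT and by 0.51, 0.64, 0.57 and 0.62 in MD1. The difference spanned 0.13 over the MD1 libraries for this pair and 2.32 for the type I pair. It spanned 0.118 for Col5a2 and Col5a1, which lie on different chromosomes, and 2.334 for Col6a2 and Col6a1. The ends of that last span rest on 9 reads of Col6a1 in MD1 replicate 3 and 132 in MD1 replicate 4.

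The summed level of the 8 endothelial markers, which mark cells with a basement membrane, was 355 to 453 CPM in WT and 466, 368, 474 and 652 CPM in MD1 replicates 1 to 4. None of those markers was at 0 in any library. Their part in the values of Col4a1 and Col4a2 was not tested.

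The X-linked pair was tested in the fit over all chromosomes, in which 0.0688% of 15982 genes passed the threshold. Col4a5 was at 45.3, 50.4 and 60.8 CPM in WT and at 50.8, 54.1, 43.0 and 84.0 CPM in MD1. Col4a6 was at 11.4, 17.1 and 23.6 CPM in WT and at 17.8, 14.6, 10.1 and 30.4 CPM in MD1. In both chains MD1 replicate 4 was above all WT libraries and MD1 replicate 3 below them, while replicates 1 and 2 lay inside the WT range. The log2 fold change was 0.18 ± 0.16 for Col4a5 with an adjusted p of 0.684 in edgeR. For Col4a6 it was 0.09 ± 0.27 with an adjusted p of 0.917 in edgeR. Both values turned negative without MD1 replicate 4, at -0.05 for Col4a5 and -0.24 for Col4a6. In WT Col4a5 exceeded Col4a6 by 1.84 ± 0.28 in log2 RPKM, a 3.59-fold difference per length, and in MD1 by 1.71 to 2.33.

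The FACIT chains were the class with the lowest median. The 3 chains of type IX collagen, which decorates cartilage fibrils, were all on the lower side. Col9a1 was at 38.3, 59.2 and 69.1 CPM in WT and at 52.4, 41.6, 56.3 and 37.1 CPM in MD1, with a log2 fold change of -0.28 ± 0.18. Col9a2 had a log2 fold change of -0.30 ± 0.18. Col9a3 was at 7.28, 10.3 and 10.9 CPM in WT and at 10.3, 7.18, 6.53 and 4.11 CPM in MD1, and 3 of its 4 MD1 libraries were below every WT library. Its log2 fold change was -0.42 ± 0.24 with an adjusted p of 0.540 in edgeR. With MD1 replicate 1 left out the groups of Col9a3 no longer overlapped, and 2.61% of all genes then had MD1 below WT throughout. Part of Col9a3 (6.07% of its exon bases) is shared with Tcfl5 on the opposite strand.

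Col22a1, a FACIT chain of tissue junctions, was the chain with the smallest p among those lower in MD1, and it was singled out after its values were seen. It was at 11.7, 14.1 and 17.8 CPM in WT and at 12.4, 11.1, 12.1 and 10.9 CPM in MD1. Replicates 2 and 4 of MD1 were below the WT range and replicates 1 and 3 at its lower end. Its log2 fold change was -0.32 ± 0.14 with an adjusted p of 0.502 in edgeR. Col14a1, which binds to type I fibrils, was at 3.22, 4.58 and 6.79 CPM in WT and at 3.95, 1.296, 4.83 and 4.33 CPM in MD1, a log2 fold change of -0.43 ± 0.32. Here MD1 replicate 2 alone was below the WT range. Col12a1, another partner of type I fibrils, was at 55.5, 65.3 and 80.3 CPM in WT and at 68.7, 73.9, 50.02 and 100.2 CPM in MD1, and Col16a1 was at 8.49, 11.4 and 18.1 CPM in WT and at 16.9, 9.17, 9.42 and 19.998 CPM in MD1. These were the only FACIT chains on the higher side, with log2 fold changes of 0.16 ± 0.16 and 0.18 ± 0.26.

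The multiplexins Col15a1 and Col18a1, basement membrane proteoglycans, differed from each other in MD1 replicate 4. Col18a1 was at 363, 420 and 463 CPM in WT and at 391, 335, 525 and 590 CPM in MD1, with replicates 3 and 4 above the WT range and replicate 2 below it. Col15a1, singled out after its values were seen, was at 58.8, 67.7 and 73.7 CPM in WT and at 80.0, 64.9, 71.3 and 27.1 CPM in MD1. The log2 fold changes were 0.16 ± 0.14 for Col18a1 and -0.14 ± 0.23 for Col15a1. Col15a1 was above the WT range in MD1 replicate 1 and far below it in replicate 4, and its log2 fold change was 0.12 without replicate 4.

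Type VI collagen forms beaded filaments from the chains Col6a1, Col6a2 and Col6a3. Col6a3 was at 17.2, 20.2 and 38.0 CPM in WT and at 25.8, 21.9, 21.0 and 22.8 CPM in MD1, all inside the WT range. Col6a2 was at 9.35, 13.9 and 17.6 CPM in WT and at 15.2, 11.7, 10.6 and 9.73 CPM in MD1, also inside it. Col6a1, the rarest of the 3, had a log2 fold change of 0.00 ± 0.41. Per length the chains were within 1 SD of each other in WT. Col6a2 less Col6a1 was 0.41 ± 0.56 in log2 RPKM there, and 0.303, 0.389, 1.363 and -0.971 in MD1 replicates 1 to 4. In MD1 replicate 3, Col6a1 had only 9 reads. Col6a3 less Col6a1 was 0.66 ± 0.67 in WT.

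Col8a2, a short-chain network collagen of the corneal basement membrane, lay on both sides of the WT range in MD1. It was at 28.2, 37.8 and 62.5 CPM in WT and at 65.1, 44.8, 26.8 and 24.3 CPM in MD1. MD1 replicate 1 was thus above the WT range, replicates 3 and 4 were below it and replicate 2 inside it, and the log2 fold change was 0.03 ± 0.28. Col26a1 was at 169, 209 and 254 CPM in WT and at 221, 196, 179 and 173 CPM in MD1, all inside the WT range. Col23a1, a transmembrane collagen, was at 61.9 to 93.6 CPM in WT and 62.7 to 77.5 CPM in MD1. Col7a1, the anchoring fibril of skin, was at 4.09 to 11.6 CPM in WT and 3.79 to 9.51 CPM in MD1, with a log2 fold change of 0.00 ± 0.29.

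The chains outside the WT range were also counted for each MD1 library, beside all genes of the same library. In MD1 replicate 4, 14 of 36 chains (38.9%) were above every WT library and 8 (22.2%) below, against 35.8% and 35.2% of all 15982 genes. In MD1 replicate 1 these counts were 7 and 0, or 19.4% above against 13.7% of all genes, and none below against 14.6%. In MD1 replicate 2, 1 chain was above and 11 (30.6%) were below, against 20.1% and 21.4% of all genes. In MD1 replicate 3, the shallowest library, 4 chains were above and 10 (27.8%) below, against 23.4% and 27.1%. The chains above the range in MD1 replicate 4 included Col1a1, Col4a1, Col4a2, Col4a5, Col4a6 and Col18a1, and those below included Col9a1, Col9a2, Col9a3, Col15a1, Col22a1 and Col24a1.

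Divided by sex label, none of the 36 chains passed the threshold under the male label, under the female label or for the difference between them in edgeR, where 0.0188%, 0.00626% and 0% of all 15982 genes did. At an unadjusted p under 0.05 there were 2 chains under the male label, against 3.8% of all genes. There were 3 under the female label against 19.1% of all genes, and 2 for the difference against 10.4%. The median log2 fold change of the chains was -0.12 in the libraries labelled male, where that of all genes was -0.01, and 0.07 in those labelled female, where that of all genes was -0.01. Col1a1 had the strongest effect under the female label, with a log2 fold change of 1.44 ± 0.24 and an adjusted p of 0.0996 in edgeR, against -0.24 ± 0.25 under the male label. The difference of 1.68 ± 0.35 had an adjusted p of 0.445 in edgeR. With MD1 replicate 1 left out, whose Y-linked reads go against its label, MD1 replicate 4 is the sole MD1 library labelled female and is assumed to vary like the other groups. In that fit 5 chains passed the test of the difference, as did 22.6% of all 16127 genes. They were Col1a1 (2.06 ± 0.24), Col20a1 (4.11 ± 1.24) and Col4a1 (0.53 ± 0.16) on the higher side in the female-labelled comparison, and Col15a1 (-1.33 ± 0.20) and Col27a1 (-0.83 ± 0.27) on the lower side, all in log2 units. Sex and the single library cannot be told apart in this fit.

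The genes that hydroxylate, fold, cut, crosslink, bind or degrade collagen were described as a list of 66, of which 62 autosomal members were tested. None passed the threshold in edgeR, and 43 were higher and 19 lower in MD1, with a median log2 fold change of 0.15 against 0.00 over all genes. At an unadjusted p under 0.05 there were 15 of them (24.2%), 12 on the higher side (19.4%), against 9.79% and 6.41% of all genes. With MD1 replicates 1 and 4 left out the median was -0.06. Of 63 members past the filter on any chromosome, 35 (55.6%) were above every WT library in MD1 replicate 4, where 35.8% of all genes were. The number was 25 (39.7%) in MD1 replicate 1, against 13.7% of all genes. It was 4 (6.35%) in replicate 2 and 14 (22.2%) in replicate 3, against 20.1% and 23.4% of all genes. Below every WT library were 1, 20, 15 and 15 members in MD1 replicates 1 to 4 (1.59%, 31.7%, 23.8% and 23.8%). Of all genes, 14.6%, 21.4%, 27.1% and 35.2% were below.

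The prolyl hydroxylases, which make the hydroxyproline that stabilises the triple helix, included P4ha1 and P4ha2, which followed Dcn in the size of the difference. P4ha1, the main catalytic subunit, was at 99.0, 107 and 218 CPM in the lowest, median and highest WT library and at 264, 111, 146 and 1084 CPM in MD1. P4ha2, a second catalytic subunit, was at 19.9, 26.1 and 67.6 CPM in WT and at 83.2, 18.4, 16.9 and 251 CPM in MD1. For both enzymes MD1 replicates 1 and 4 were above all WT libraries, and the highest WT library was replicate 1. The log2 fold change was 1.67 ± 0.53 for P4ha1 with an adjusted p of 0.496 in edgeR, and 0.48 without MD1 replicate 4. That of P4ha2 was 1.58 ± 0.63 with an adjusted p of 0.498 in edgeR, 0.45 without MD1 replicate 4 and -0.80 without MD1 replicates 1 and 4. P4hb, the shared beta subunit, was at 612, 697 and 789 CPM in WT and at 918, 707, 779 and 1425 CPM in MD1, a log2 fold change of 0.43 ± 0.17, and of 0.18 without MD1 replicate 4.

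Among the lysyl hydroxylases, whose products are the sites of crosslinks, Plod2 and Plod1 were likewise above all WT libraries in MD1 replicates 1 and 4. Plod2 was at 89.7, 99.2 and 204 CPM in WT and at 247, 114, 108 and 543 CPM in MD1, a log2 fold change of 1.14 ± 0.41 with an adjusted p of 0.496 in edgeR, and of 0.47 without MD1 replicate 4. Plod1 was at 46.8, 53.0 and 65.4 CPM in WT and at 77.1, 47.3, 49.5 and 148 CPM in MD1, a log2 fold change of 0.57 ± 0.27. WT replicate 1 again was the highest WT library for Plod2. The 3 lysyl hydroxylases and the 2 glycosyltransferases Colgalt1 and Colgalt2 were all on the higher side. Their median log2 fold change was 0.57 over the 5, and Colgalt2 was highest in MD1 replicate 3, at 8.70 CPM. Under the male label alone, Plod1 (-0.17), Plod2 (-0.22) and Plod3 (-0.13) were lower, and Colgalt1 (0.12) and Colgalt2 (0.68) higher. Loxl2, a crosslinking lysyl oxidase named after its values were seen, was at 61.1, 72.9 and 93.7 CPM in WT and at 136, 62.4, 73.9 and 437 CPM in MD1. Its log2 fold change was 1.25 ± 0.43, and -0.15 without MD1 replicates 1 and 4. Lox itself was at 10.6 to 17.1 CPM in WT and at 21.3, 13.8, 9.67 and 25.6 CPM in MD1.

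The list of 18 hypoxia genes, which holds none of these enzymes, had a score (mean log2 CPM against the WT mean) of 0.97, -0.35, -0.35 and 3.26 in MD1 replicates 1 to 4, and of 1.04 in WT replicate 1 against -0.51 to -0.04 in the other WT libraries. Its summed level was 1900 to 3837 CPM in WT and 2323 to 16034 CPM in MD1, and Adm and Car9 were at 0 in MD1 replicate 3. MD1 replicate 4, MD1 replicate 1 and WT replicate 1 were thus the 3 highest libraries for the hypoxia list, P4ha1, P4ha2 and Plod2 alike. WT replicate 1 came before MD1 replicate 1 on the list and after it for the 3 enzymes. Other genes above every WT library in MD1 replicates 1 and 4 had another order. WT replicate 6 was the highest WT library for Plod1 (65.4 CPM), Loxl2 (93.7 CPM) and Dcn (2.63 CPM). For Col1a1, WT replicate 1 was the lowest WT library, at 74.2 CPM. The part of the genes on the hypoxia list in these values was not tested. Of the 6 yolk sac and liver markers, 5 were above every WT library in MD1 replicates 1 and 4, against 13.7% and 35.8% of all genes. The summed level of the 6 was 0.734 to 27.4 CPM in WT and 0.483 to 333 CPM in MD1, with Alb at 0 in MD1 replicate 4. The erythroid markers had a summed level of 2914 to 4184 CPM in WT and 2570 to 19705 CPM in MD1, and the 4 mesothelial markers 0.538 to 1.99 CPM and 0.199 to 13.2 CPM, with Msln, Upk3b and Wt1 at 0 in MD1 replicates 2 and 3.

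The upstream stretches of P4ha1, P4ha2 and Plod1 are shown as examples from genes with RefSeq windows (GRCm38.p6). These enzymes were highest in MD1 replicate 4, where the hypoxia list was highest. Other biosynthesis genes, such as P4hb (1425 CPM), were highest there too. The stretches were picked by hand, and those shown all hold a match. Each is the 250 bases before the RefSeq start, 5′ to 3′ on the strand of the gene, free of annotated exons. Capitals mark ACGTG or GCGTG on either strand, the core letters that hypoxia-inducible factors bind. P4ha1 is chr10:59323046-59323295 (plus strand), with matches 163, 126 and 16 bases before the start. P4ha2 is chr11:54100674-54100923 (plus strand), inside an intron of a longer annotated transcript, with matches 107, 78 and 69 bases before the start. Plod1 is chr4:147936777-147937026 (minus strand), with 1 match 20 bases before the start.
P4ha1: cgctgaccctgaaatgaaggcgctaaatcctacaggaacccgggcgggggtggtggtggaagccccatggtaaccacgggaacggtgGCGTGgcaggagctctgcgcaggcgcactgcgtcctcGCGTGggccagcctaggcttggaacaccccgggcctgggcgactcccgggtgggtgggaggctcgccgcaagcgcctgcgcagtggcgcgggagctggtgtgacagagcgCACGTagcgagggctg
P4ha2: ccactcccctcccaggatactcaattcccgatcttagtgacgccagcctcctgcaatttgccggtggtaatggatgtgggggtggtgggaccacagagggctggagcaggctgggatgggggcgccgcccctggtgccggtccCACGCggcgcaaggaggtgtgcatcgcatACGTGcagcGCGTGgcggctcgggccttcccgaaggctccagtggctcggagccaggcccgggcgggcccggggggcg
Plod1: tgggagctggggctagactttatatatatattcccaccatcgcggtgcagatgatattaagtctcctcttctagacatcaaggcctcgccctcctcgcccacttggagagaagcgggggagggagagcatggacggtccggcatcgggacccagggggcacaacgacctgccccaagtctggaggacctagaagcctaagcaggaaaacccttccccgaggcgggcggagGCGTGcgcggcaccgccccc
In the windows of 300 bases, 1 or both of these letter runs occurred in 25 of 43 biosynthesis and turnover genes with a window (58.1%), in 13 of 35 collagen chains (37.1%) and in 46.7% of all genes. A match is a description of the letters and no evidence of binding.

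Serpinh1 (HSP47), the chaperone specific to collagen, was level between genotypes, at 708, 751 and 913 CPM in WT and 821, 650, 718 and 825 CPM in MD1, with a log2 fold change of -0.03 ± 0.09. Dcn (decorin), a proteoglycan that coats fibrils and was named after its values were seen, had the highest log2 fold change of the list, 2.17 ± 0.60, at a low level. It was at 1.34, 1.71 and 2.63 CPM in WT and at 5.61, 2.29, 0.97 and 22.7 CPM in MD1. MD1 replicates 1 and 4 were above the WT range, replicate 2 inside it and replicate 3 below it. The adjusted p of Dcn was 0.496 in edgeR, and its log2 fold change was 0.87 without MD1 replicate 4.

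Of the 62 genes, 1 had all MD1 libraries above and 1 had all MD1 libraries below the WT libraries (1.6% each, against 0.99% and 1.06% of all genes). Itgb1, the beta subunit shared by the collagen-binding integrins, was at 397, 408 and 427 CPM in the lowest, median and highest WT library and at 484, 453, 457 and 589 CPM in MD1. Its log2 fold change was 0.28 ± 0.08 with an adjusted p of 0.496 in edgeR, and 0.19 without MD1 replicate 4. Adamts3, which removes the amino-terminal propeptide of fibrillar procollagens, was at 15.8, 17.6 and 19.6 CPM in WT and at 13.2, 13.8, 15.5 and 8.44 CPM in MD1. Its log2 fold change was -0.48 ± 0.16 with an adjusted p of 0.496 in edgeR, and -0.33 without MD1 replicate 4. No other gene of the list was free of overlap, and the shares were close to those of all genes.

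By role, 9 of 10 proline hydroxylation genes were higher in MD1, against 50.5% of all genes. So were 8 of 9 basement membrane partners and all 6 fibril partners tested. Under the male label alone, P4ha1, P4ha2 and P3h1 to P3h4 were lower, and P4ha3, P4hb, Crtap and Ppib higher. Lama1, Lama4, Lama5, Lamb1, Lamb2 and Hspg2 were lower there too, and Lamc1, Nid1 and Nid2 higher. Of the fibril partners, only Fmod was lower under that label. Over all libraries, the basement membrane partners had a median log2 fold change of 0.25. The nidogens Nid1 and Nid2, which link laminin to type IV collagen, were at 0.30 ± 0.10 and 0.29 ± 0.13. The laminin chain Lama5, at 0.35 ± 0.26, was at 107, 82.3, 118 and 258 CPM in MD1 against 96.6 to 136 CPM in WT, so that only MD1 replicate 4 was above the WT range. Genes of propeptide cleavage were lower in 6 of 8 cases, with a median of -0.25, and all 4 tested genes of collagen uptake and degradation were lower, with a median of -0.18. None of these genes passed the threshold.

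**Figure D5:**
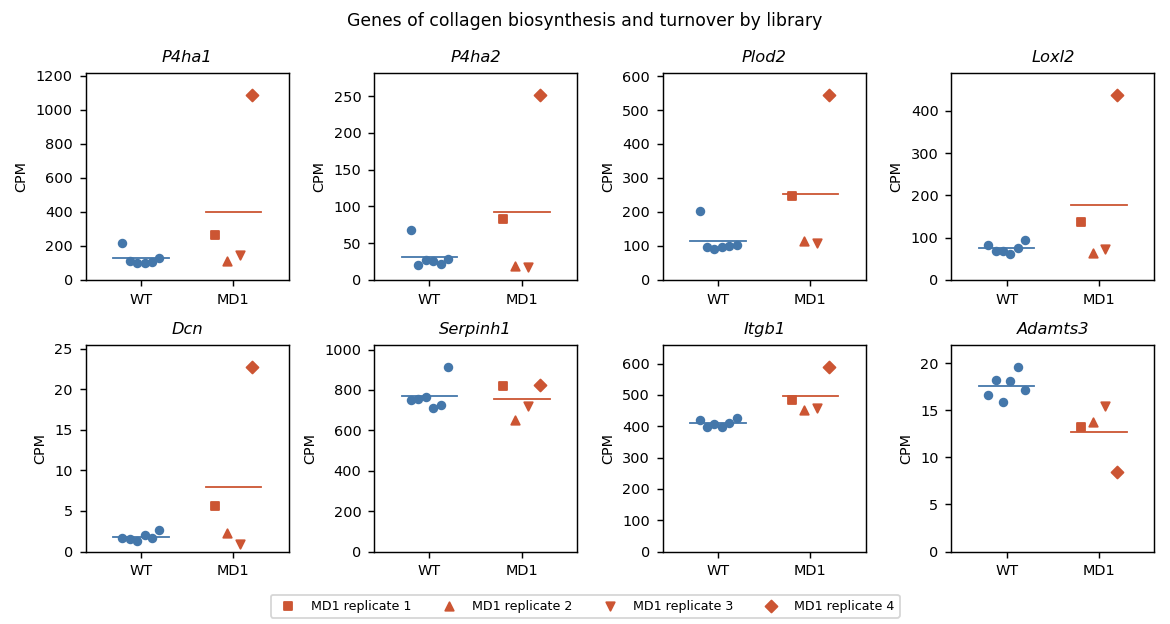
Level of 8 genes of collagen biosynthesis and turnover in each library, in CPM on linear axes from 0. Blue circles are the 6 WT libraries, orange symbols are MD1 replicates 1 to 4 and lines are means. P4ha1, P4ha2, Plod2, Loxl2 and Dcn are highest in MD1 replicate 4 (1084 CPM for P4ha1), and Serpinh1 overlaps. Itgb1 and Adamts3 do not overlap between genotypes, and neither passed the threshold.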

How the data were processed

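Per the labels, 10 libraries of the frontonasal prominence were prepared from total RNA with a kit that does not mark strand. According to the study's methods and the submitters' processing notes, the authors trimmed reads with Trim Galore 0.4.4, aligned them with HISAT2 2.0.5 to GRCm38.p6 and quantified genes in SeqMonk. The notes also name bcl2fastq, and the annotation release and the strand setting are not given in the sources used here. One table that the authors deposited holds whole-number read counts by gene, and the other holds log2 RPKM values, normalized for library size and transcript length with zeros replaced before the logarithm. The signal columns that the authors deposited as means of each genotype were not used.

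Of 35591 rows, 49 repeated a gene identifier, and the row with more reads was kept. Symbols of 26 genes that had become dates were restored from the identifiers. After filterByExpr, which kept 15982 genes, and TMM scaling, edgeR 4.0.16 in R 4.3.3 was run in its quasi-likelihood form with no covariate, on 15452 autosomal genes, and on all chromosomes for X-linked chains and for the sex labels. Adjustment was by Benjamini-Hochberg over all genes tested, with a threshold of 0.05. The SE is the log2 fold change over the square root of F. Scores used log2 CPM with a prior count of 2. The scripts were tested on simulated data. Depth was 4195119 to 24125084 counts per library, and intervals and floors (3 counts) cover counting error only. All 45 library pairs differed beyond sampling noise (chi-square per degree of freedom 4.10 to 164). Replicates are separate samples per the labels, which leave unsaid whether libraries share an embryo, so a p-value here reflects only the spread of these samples, which may be technical.

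Groups came from the labels. The members and lists were chosen with earlier results of these data known. Named were chains past the threshold or not overlapping between genotypes, the 3 highest and 3 lowest fold changes, the highest chains of each class per length, the X-linked chains and fixed enzymes. Col1a2, Col15a1, Col22a1, Loxl2 and Dcn were added after their values were seen. Coordinates and exons are those of GENCODE M21, which match the files for every chain. Alternatives were DESeq2 1.42.0, its size factors in edgeR, total-count scaling, voom and limma 3.58.1 on log2 RPKM, no low-count filter, sex label as a covariate, a replicate block, each library left out in turn, and both libraries labelled MD1 female left out.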

Additional observations from a re-analysis of the deposited data

Results flagged for a closer look

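A library was singled out where the gap between the highest or lowest library of a genotype and its nearest neighbour took up more of the range of that genotype than Dixon's critical value at the 95% level allows. Of 94 combinations of gene and genotype examined, 7 met that criterion, and chance alone gives about 1 in 20. Among collagen chains, Col1a2 in MD1 replicate 1 was at 860 CPM, with the next MD1 library at 689. Col8a2 in WT replicate 4 was at 62.5 CPM, with the next WT library at 40.9.

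Among the genes of biosynthesis and turnover, WT replicate 1 was the highest WT library by such a gap for P4ha1 (218 CPM, next 126), P4ha2 (67.6 CPM, next 28.3) and Plod2 (204 CPM, next 103). MD1 replicate 4 was the highest MD1 library by such a gap for P4ha1, at 1084 CPM with the next library at 264. Serpinh1 in WT replicate 6 was at 913 CPM, with the next WT library at 763. The hypoxia list scored 1.04 in WT replicate 1 and 3.26 in MD1 replicate 4, and its part in these values was not tested.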

How the results depend on the processing

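No collagen chain and no biosynthesis or turnover gene passed the threshold for MD1 against WT under any alternative run, and the lowest adjusted p of a named gene was 0.0989, while all genes past it numbered 51 with DESeq2, 12 with voom, 4 on log2 RPKM, 6 without MD1 replicates 1 and 4 and 0 under the replicate block. The replicate numbers did not pair the libraries (correlations of deviations 0.002, -0.074, 0.05 and -0.118), and the replicate block on same-numbered libraries gave 0 chains past the threshold and a median of -0.111. At an unadjusted p under 0.05, the 2 chains became 1 with DESeq2 and 0 with voom, log2 RPKM, the sex label and the block, and 0 to 4 with a library left out. The 15 biosynthesis and turnover genes at that level became 4 on log2 RPKM, 2 under the block and 4 without MD1 replicate 4. The share of all genes at that level was not counted in these alternative runs. Whether the counts of chains and of biosynthesis and turnover genes moved apart from it cannot be told.

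Of 760 log2 fold changes of 38 named genes, 52 changed sign, over 20 genes, and the cause was not tested. Under other settings these were, for Col7a1, -0.042 (total count), -0.007 (voom), -0.101 (log2 RPKM), -0.009 (no filter), -0.058 (sex label) and -0.042 (block). For Col8a2 they were -0.138 (log2 RPKM) and -0.085 (block), for Col11a2 -0.009 and for Col4a6 -0.096 (log2 RPKM), and for Serpinh1 0.014 (block). Without MD1 replicates 1 and 4 the values were -0.326 (Col1a1), -0.426 (Col16a1), -0.004 (Col4a1), -0.062 (Col12a1), -0.114 (Col8a2), -0.53 (Col7a1), -0.246 (Col11a2), 0.024 (Col15a1), -0.069 (Col4a5), -0.451 (Col4a6), -0.796 (P4ha2), -0.17 (Plod1), -0.04 (Plod2), -0.143 (Lox), -0.148 (Loxl2) and -0.029 (Dcn). In that setting 3 chains no longer overlapped between genotypes (Col13a1, Col20a1 and Col9a3, all below, as 7.11% of all genes were). Of these, Col20a1 had only 2 and 0 reads in MD1 replicates 2 and 3. The median of biosynthesis and turnover genes was -0.063 in that setting.

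With each library left out in turn, the values ranged from -0.02 to 0.343 for Col16a1, -0.107 to 0.032 for Col3a1, -0.018 to 0.294 for Col12a1, -0.133 to 0.127 for Col6a3, -0.316 to 0.244 for Col8a2, -0.145 to 0.224 for Col7a1, -0.066 to 0.192 for Col11a2, -0.154 to 0.037 for Col1a2, -0.311 to 0.117 for Col15a1, -0.051 to 0.289 for Col4a5, -0.243 to 0.264 for Col4a6 and -0.073 to 0.034 for Serpinh1. The chains that did not overlap numbered 0 to 1 (Col22a1 without WT replicate 4, and Col9a3, Col4a2 and Col11a1 without MD1 replicates 1, 2 and 3), and those past the test of the difference between sex labels 0 to 5, the 5 without MD1 replicate 1. No alternative varied depth. The coefficient of variation over WT libraries was larger for the 20 chains under a WT mean of 50 CPM (26.2%) than for the 16 others (11.3%).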
